A study of Mus musculus with 6 samples.

Results

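The genes described here encode the proteins of the cytosolic ribosome, and they were taken from the deposited table by symbol. Names built of Rpl or Rps and a number were taken, with an optional closing letter or the ending al or l1. The stalk genes *Rplp0*, *Rplp1* and *Rplp2* and the gene *Rpsa* were added. Of the 23420 genes in the table, 83 carried such a symbol, 31 of them for the small or 40S subunit and 52 for the large or 60S subunit. Among the 83 were 7 paralogs, close relatives of a core gene whose symbols end in l or l1, which left 76 core genes. Averaged over the genotypes, 79 members had 10 or more counts and were measured, and *Rpl26*, *Rpl10l*, *Rpl39l* and *Rpl30* were under that bound. Reads of these genes can be shared with processed pseudogenes and paralogs, so single members are measured less surely than most genes.

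RNA-seq compared uteri of *Foxo1f/f* mice, which carry floxed alleles of *Foxo1* and no Cre, with uteri of *Foxo1d/d* mice, which carry PgrCre/+ and the same floxed alleles. All were C57BL/6J females of 8 weeks, mated with vasectomized males and taken at pseudopregnancy day 4.5 (PPD 4.5). Each genotype had 3 libraries, and each library held the pooled RNA of 2 mice. The comparison addresses which transcripts of the uterus differ around the time of implantation when *Foxo1* is deleted. Only the *Foxo1d/d* mice carried PgrCre/+, so effects of the Cre allele itself and of the deletion cannot be told apart. Cre from the *Pgr* locus acts in cells that express PGR, which includes cells of the pituitary and ovary beside those of the uterus. Values of single libraries were not used, only the authors' mean raw count per genotype, so there is no SD between pools and no test, and every interval is a 95% Clopper-Pearson interval that covers counting error only. The mean total per library was 26125014 counts for *Foxo1f/f* and 27257963 for *Foxo1d/d*. A pseudocount of 1 was added, the counts were divided by the total of their genotype, and differences are given as log2 ratios, positive where *Foxo1d/d* was higher. The RNA came from whole uterus, so fewer cells of a type and less RNA per cell cannot be told apart.

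Each ribosome needs its proteins in fixed proportions, and cells adjust their synthesis largely at translation, through a terminal oligopyrimidine tract (TOP) at the 5′ end of the mRNAs, to which LARP1 binds under the control of mTOR. AKT, which restrains FOXO factors, also lies upstream of mTOR. Core ribosomal protein mRNAs are short and abundant, and many of them have processed copies scattered over the genome.

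The deleted gene was checked first. *Foxo1* (chromosome 3, 52268337 to 52350109, GRCm38.p6) had a mean of 3941 counts in the *Foxo1f/f* group against 1456 in the *Foxo1d/d* group, and its log2 ratio was -1.50 (-1.55 to -1.45). Reads over exons that Cre does not remove can remain, as can those of cells without PGR. *Pgr*, a marker of the tissue and the locus that drives Cre, had 5469 and 6551 counts and a log2 ratio of 0.20 (0.17 to 0.23).

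The ribosomal protein genes were nearly level between the genotypes. Of the 79 measured members, 0 were over 1.5-fold higher in *Foxo1d/d*, where 5.43% of all 15696 measured genes were. Likewise 0 were over 1.5-fold lower, where 3.51% of all measured genes were. Those shares take in many genes with few counts. Most core genes had 3 to 30 counts per base of transcript in a library. Of other genes, 3.85% at 3 to 10 and 2.17% at 10 to 30 counts per base passed 1.5-fold in either direction. At such depth, 0 members past the fold is thus close to the share of other genes. The median log2 ratio of the members was -0.011, with quartiles of -0.025 and 0.012. Over all measured genes the median was 0.025, with quartiles of -0.11 and 0.17. The median absolute log2 ratio was 0.021 for the members and 0.14 for all genes. A log2 ratio between -0.1 and 0.1, a window chosen after the values were seen, held 69 of the 79 members and 37.8% of all genes. The direction of so small a median rests on little, and the split around 0 moved with the scaling. With ratios centred on the median gene, 68 members lay below 0 and 11 above it, against 46 and 33 with division by the total count.

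**Figure D1:**
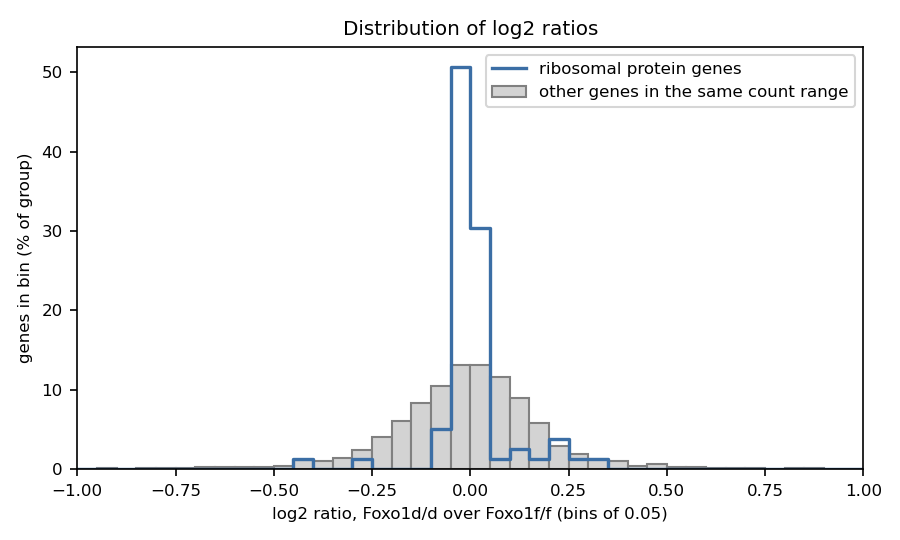
Distribution of log2 ratios (Foxo1d/d over Foxo1f/f, x axis, bins of 0.05) in percent of each group (y axis). The blue line shows the 79 measured ribosomal protein genes and the grey bars the 3989 other genes whose mean counts lie within the range of the core members with 1000 or more counts, of which 1.13% lie outside the plotted range. The blue line is concentrated in the bins next to 0, and the bars spread wider.

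Counting error is small at these depths, and how many members lay within it depended on the scaling. For the 72 core genes with a mean of 1000 or more counts, a bound chosen after the values were seen, the median width on either side of the ratio was 0.022, and the interval of 41 genes (56.9%) included 0. Of the 31 others, 27 lay below 0 and 4 above it. With ratios centred on the median gene, the interval of 22 genes (30.6%) included 0, 48 lay below it and 2 above. Among the 3989 other genes with mean counts between 1943 and 36690, the range of those core genes, the interval included 0 for 20.7% and, after centring, for 20.5%, although it was wider, with a median of 0.041 on either side. The median absolute log2 ratio was 0.020 in the core genes and 0.10 in those other genes, and 0.040 and 0.10 after centring.

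Genes of like abundance per length showed the same contrast. Levels per length are CPM per kb, the counts of a gene scaled to the total (CPM) and divided by the length of its shortest coding transcript. At 300 to 1000 CPM per kb in *Foxo1f/f*, 52 core genes had a median absolute log2 ratio of 0.019, and 77 other genes had 0.10. Duplicate reads had been removed by the authors, a step that can cap the counts of short, abundant transcripts. The core genes carried a median of 11.99 counts per base of transcript in a library, and the other genes 0.336. At 10 to 30 counts per base, 48 core genes had a median absolute log2 ratio of 0.017, and 46 other genes had 0.10, from *Igf1* at -0.43 to *Ctsd* at 0.72. Duplicates themselves could not be counted from the means, and their part in the ratios of the members was not tested.

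Summed over the members, the ribosomal protein genes held 3.17% of all counts in *Foxo1f/f* (3.167 to 3.174) and 3.13% in *Foxo1d/d* (3.125 to 3.133), a log2 ratio of -0.019 (-0.021 to -0.016). The 40S genes held 1.30% and 1.26%, a log2 ratio of -0.042 (-0.045 to -0.038), and the 60S genes held 1.87% and 1.87%, a log2 ratio of -0.0034 (-0.0067 to -0.00017). Without *Rps18* and *Rps2*, the lowest members, the log2 ratio of all members together was -0.010. The median log2 ratio of the 31 measured 40S genes was -0.020 and that of the 48 measured 60S genes 0.0048.

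**Figure D2:**
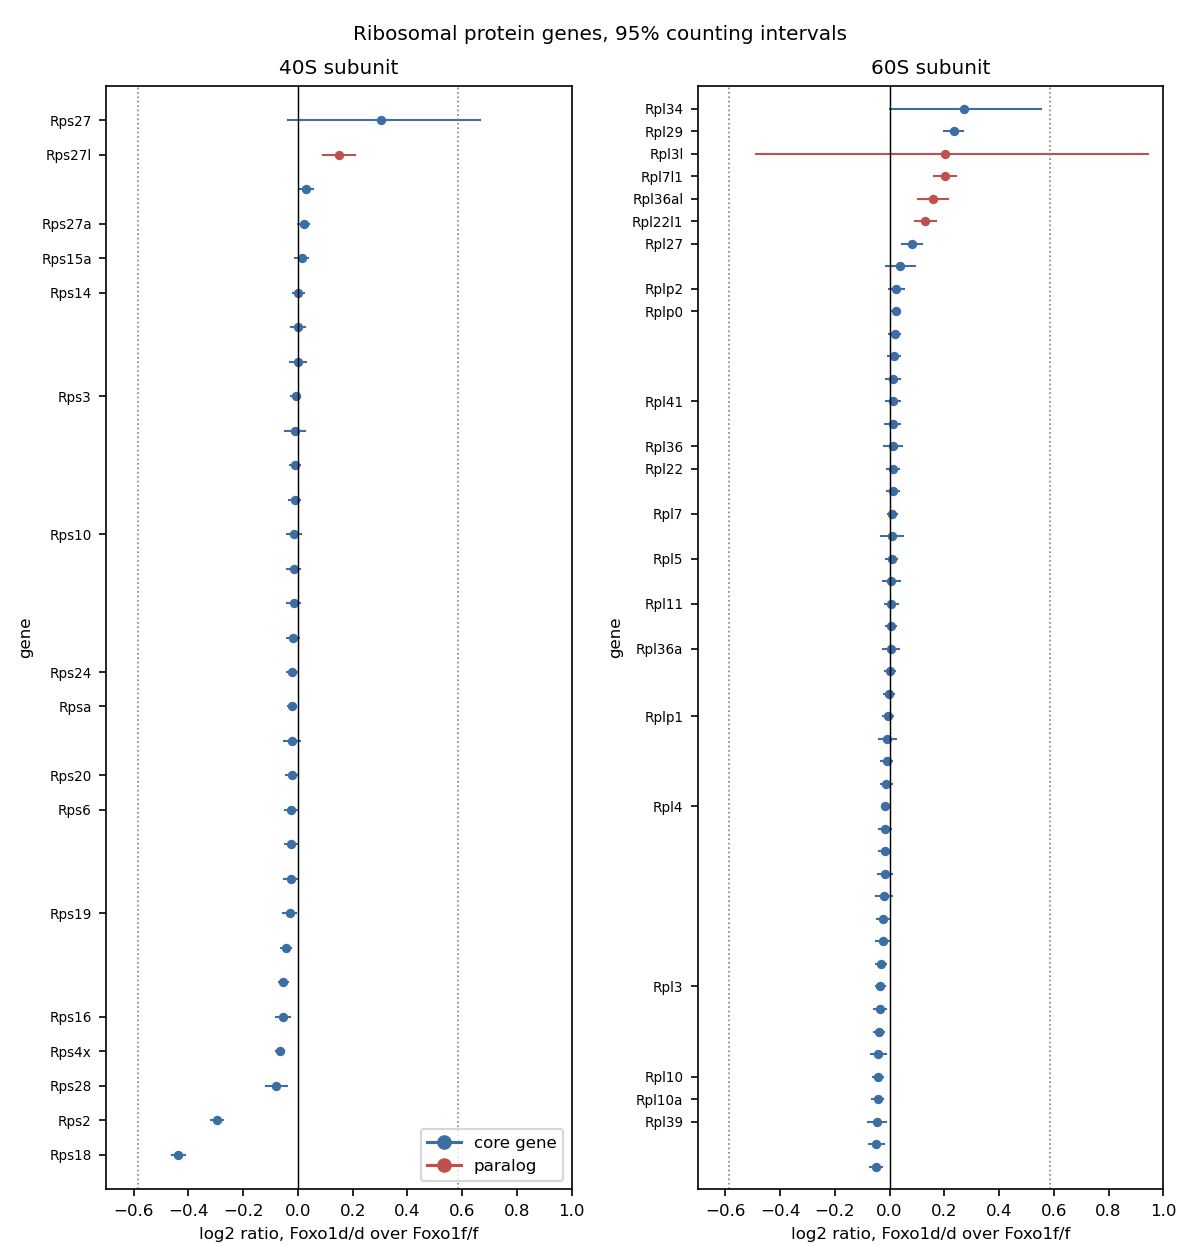
Log2 ratio (Foxo1d/d over Foxo1f/f, x axis) of each of the 79 measured ribosomal protein genes (y axis, with some of the genes labelled), 40S genes on the left and 60S genes on the right, in order of their ratio. Points are ratios, lines are 95% counting intervals, core genes are blue, paralogs are red, and dotted lines mark 1.5-fold. Rps18 and Rps2 stand apart at the lower end of the 40S genes, and the 4 paralogs with over 1000 counts lie among the highest members.

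Levels per length differed widely among the members and hardly at all between the genotypes. Among the 76 members with a mean of 1000 or more counts, the median level was 454 CPM per kb in *Foxo1f/f* and 444 in *Foxo1d/d*, with quartiles of 279 and 696 in *Foxo1f/f*. Among the highest levels in *Foxo1f/f* were those of *Rps24* (1156), the stalk gene *Rplp1* (1110), *Rps4x* (971) and *Rpl4* (899). The same genes stood at 1139, 1105, 928 and 889 in *Foxo1d/d*, so that their order was the same in both genotypes. Of the 100 genes with the highest levels per length in *Foxo1f/f* among 14547 ranked, 48 were members, and 75 of the 83 members lay above the 90th percentile of the ranked genes, 58.5. *Rps15a* and *Rps20* were among the 5 lowest members with at least 50 counts in both genotypes, at 70.1 and 114, but their reference transcripts run to 5179 and 3706 bases. Per kb of coding sequence they stood at 930 and 1185 CPM in *Foxo1f/f*. *Rpl34* (5.26), *Rpl7l1* (44.8) and *Rps27l* (112) completed the 5 lowest.

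The small subunit holds the decoding centre and reads the mRNA. *Rps6*, the substrate of the S6 kinases, had 9611 and 9861 counts and a log2 ratio of -0.024 (-0.048 to -0.00070). *Rps3*, at the entry of the mRNA channel, had 21185 and 21978 counts and a log2 ratio of -0.0083 (-0.024 to 0.0075). *Rps14* and *Rps19*, known for anemias that follow the loss of a single copy, stood at 0.0012 (-0.020 to 0.022) and -0.030 (-0.053 to -0.0074). *Rpsa*, also known as the laminin receptor, had 24731 and 25429 counts and a log2 ratio of -0.021 (-0.036 to -0.0065). *Rps27a*, which is made as a fusion with ubiquitin, stood at 0.020 (-0.00087 to 0.041). With division by the total count, the intervals of *Rps3*, *Rps14* and *Rps27a* included 0, and those of *Rps6*, *Rps19* and *Rpsa* lay just below it. This split depended on the scaling. With ratios centred on the median gene, *Rps3*, *Rps14* and *Rps27a* stood at -0.033, -0.023 and -0.0044, below the lower ends of their intervals given here.

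The lowest ratios of the family were all in the small subunit. *Rps18* (chromosome 17, 33951998 to 33955665, GRCm38.p6), whose protein sits in the head of the 40S subunit, had a mean of 10599 counts in *Foxo1f/f* against 8166 in *Foxo1d/d*, and its log2 ratio was -0.44 (-0.46 to -0.41), a fold of 0.738. *Rps2*, a protein at the entry of the mRNA channel, had 12824 against 10900 counts, a log2 ratio of -0.30 (-0.32 to -0.27) and a fold of 0.815. After these came *Rps28* at -0.079 (-0.12 to -0.040), *Rps4x* at -0.065 and *Rps16* at -0.055. *Rps28* was thus much closer to the rest of the core genes than to *Rps2*.

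*Rps18*, *Rps2* and *Rps28* all lie on chromosome 17, an observation made after the values were seen. The chromosome holds 8 members, and the others had log2 ratios of -0.044 for *Rpl10a*, -0.013 for *Rps10*, 0.012 for *Rpl36*, 0.20 for *Rpl7l1* and 0.20 for *Rpl3l*. Ratios of the genes beside *Rps18* and *Rps2* were mixed. The 46 other measured genes that start within 500 kb of *Rps18* had a median log2 ratio of 0.16, with 9 intervals below 0 and 28 above it, and its nearest neighbours *B3galt4*, *Vps52*, *Wdr46* and *Rgl2* stood at -0.023, 0.24, 0.19 and -0.17. The 44 genes around *Rps2* had a median of 0.049, with 12 intervals below 0 and 19 above it, and with *Ndufb10* at 0.12, *Tbl3* at 0.32 and *Rnf151*, whose interval included 0, at 0.45. Over all 767 other measured genes of chromosome 17 the median was 0.038.

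The RefSeq promoter table (GRCm38.p6) held 63 of the 83 members, with 75 starts. Sequences around the annotated start of the 4 lowest members and of 3 other 40S genes are given here, 10 bases before the start and 20 bases from it on, because TOP tracts are the feature by which these mRNAs are known. Capitals mark the first C that lies within 5 bases of the start and is followed by at least 4 pyrimidines, together with all the pyrimidines that follow it. *Rps18*, *Rps28* and *Rps10* lie at chr17:33955646-33955675, chr17:33824543-33824572 and chr17:27635225-27635254 on the minus strand, *Rps2* at chr17:24720053-24720082 on the plus strand, and *Rps6* and *Rps27* at chr4:86857348-86857377 and chr3:90213629-90213658 and *Rps4x* at chrX:102189372-102189401 on the minus strand.
Rps18: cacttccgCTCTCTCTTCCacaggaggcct
Rps2: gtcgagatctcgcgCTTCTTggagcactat
Rps28: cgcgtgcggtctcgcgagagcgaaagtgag
Rps4x: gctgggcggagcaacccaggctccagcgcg
Rps10: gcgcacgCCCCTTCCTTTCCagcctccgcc
Rps6: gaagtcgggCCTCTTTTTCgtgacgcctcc
Rps27: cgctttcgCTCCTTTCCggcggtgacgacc

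A tract of this kind was present at or near the start of *Rps18*, *Rps2*, *Rps10*, *Rps6* and *Rps27* and was not in the windows of *Rps28* and *Rps4x*. Starting exactly at the annotated base, it was found in 13 of the 63 members (20.6%) and in 3.01% of all 27025 genes of the promoter table. Allowing a shift of 5 bases, the numbers were 29 members (46.0%) and 21.2% of all genes. The annotated start often differs from the start used, so a missing tract says only that these letters are not there. The median log2 ratio was -0.011 for the 29 measured members with a tract and -0.011 for the 31 without.

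Short motifs were searched on both strands from 250 bases before to 50 bases after the start, and no motif contains another. The ETS motif CCGGAAG was in 25 of the 63 members (39.7%) against 9.93% of all genes, and the YY1 motif AAGATGGCG in 4 (6.35%) against 1.64%. The SP1 motif GGGCGG was in 39 members (61.9%) and 38.2% of all genes, the E-box CACGTG in 6 (9.52%) and 8.09%, and TATAAA in 7 (11.1%) and 15.7%. The forkhead motif TGTTTAC, a core of the sequence that FOXO factors bind, was in the window of *Rpl41* and of no other member searched (1.59%), and in 4.05% of all genes.

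The stalk of the large subunit recruits the elongation factors. *Rplp0*, its base, had 24669 and 26135 counts and a log2 ratio of 0.022 (0.0075 to 0.037). *Rplp1* and *Rplp2*, the acidic proteins that form dimers on it, had log2 ratios of -0.0056 and 0.024, each with an interval that included 0. With ratios centred on the median gene, *Rplp0*, *Rplp1* and *Rplp2* stood at -0.0027, -0.030 and -0.00057. *Rpl3*, *Rpl4*, *Rpl10*, *Rpl5*, *Rpl11* and *Rpl41* lay within 0.05 of 0, some with intervals below it. *Rpl3*, near the peptidyl transferase centre, stood at -0.035 (-0.051 to -0.018). *Rpl4*, which lines the exit tunnel, stood at -0.016 (-0.028 to -0.0037), from 36112 and 37269 counts, the most of any member. *Rpl10*, which joins late in assembly, was at -0.044 (-0.062 to -0.026). *Rpl5* and *Rpl11*, which form a particle with 5S rRNA and bind MDM2 when assembly fails, were at 0.0069 and 0.0061. *Rpl41*, which encodes a very short basic peptide, was at 0.013.

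Only a few 60S core genes left this band. *Rpl29*, which has also been described as a heparin-binding protein, had 4192 and 5143 counts and a log2 ratio of 0.23 (0.20 to 0.27). *Rpl27* followed at 0.081 (0.044 to 0.12). *Rpl34* had the highest ratio among members with at least 50 counts in both genotypes, 0.27, but with 66 and 83.3 counts its interval ran from 0.00038 to 0.55. *Rps27*, of the small subunit, was at 0.30, with 40.7 and 52.7 counts and an interval of -0.038 to 0.66 that included 0. Among the core genes with 1000 or more counts, *Rps18*, *Rps2* and *Rpl29* were the 3 with a log2 ratio beyond 0.1 in either direction, and the 69 others lay within it, but with ratios centred on the median gene *Rps28* passed it as well, at -0.10.

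Sequence shared with other genes was measured as the percent of windows of 90 bases, about the length of the trimmed reads, that also occur in a transcript of another GENCODE gene. Its median was 38.3% over the 83 members, 30 members had over 50% and 5 had 0%. The value was 65.0% for *Rps18*, shared with 6 genes, 67.3% for *Rps2*, shared with 41 genes, and 52.6% for *Rpl29*, shared with 32 genes. Of the 29 measured core genes with over 50% shared windows, 25 had a log2 ratio within 0.1, and of the 45 with less, 44 did. The median log2 ratio was -0.012 in the first group and -0.011 in the second. The 8 core genes with at most 5% shared windows, which include *Rps3* at 0%, had a median of -0.015, and 8 of them lay within 0.1. How shared reads of *Rps18*, *Rps2* and *Rpl29* were assigned was not tested.

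**Figure D3:**
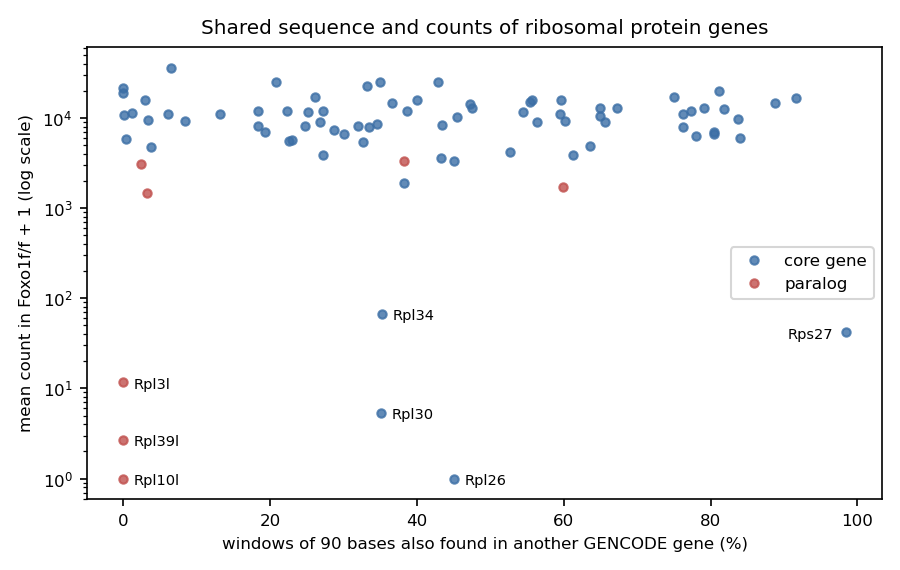
Mean count in Foxo1f/f plus 1 (y axis, log scale) against the percent of 90-base windows that also occur in another GENCODE gene (x axis), for all 83 ribosomal protein genes. Core genes are blue and paralogs red. Most genes lie above 1000 counts, and Rps27, Rpl34, Rpl30 and Rpl26 are the 4 core genes far below the others.

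Those 4 core genes had far fewer counts than every other core gene. *Rpl26* was listed with 0 counts in both genotypes, and 3 reads over the libraries of a genotype, about the one-sided 95% limit for a count of 0, would be 3.83e-06% of the reads for *Foxo1f/f* and 3.67e-06% for *Foxo1d/d*. Of its windows, 45.1% were shared with 4 genes, and no exon of another gene overlapped it. *Rpl30* had 4.33 and 5.67 counts, with 35.1% shared windows and 34.7% of its transcript under an exon of another gene. *Rpl34* had 35.3% shared windows. *Rps27* had 98.4%, shared with 3 genes, and the coding sequence of one of them, *Rps27rt*, which is not in the table, differs from its own at 0 of 252 bases. Why these 4 genes had few reads assigned was not tested.

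Some paralogs, though not all, replace or accompany the core protein in some tissues. All 5 measured paralogs had a ratio above 0, as did 55.1% of all measured genes. *Rpl7l1* had 3052 and 3660 counts and a log2 ratio of 0.20 (0.16 to 0.24), against 0.010 for *Rpl7*. *Rpl36al* had 1700 and 1979 counts, a log2 ratio of 0.16 (0.10 to 0.21), against 0.0038 for *Rpl36a*. *Rps27l*, a gene known as a p53 target, had 1463 and 1692 counts, a log2 ratio of 0.15 (0.090 to 0.21), and its parent *Rps27* had too few counts to compare. *Rpl22l1* had 3356 and 3834 counts, a log2 ratio of 0.13 (0.092 to 0.17), against 0.012 for *Rpl22*. The intervals of these 4 lay above 0, and with ratios centred on the median gene, which moved every value by -0.025, the 4 ratios were still above 0.

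The paralogs *Rpl3l*, *Rpl39l* and *Rpl10l* were near the floor. *Rpl3l*, known from striated muscle, had 10.7 and 13 counts, with an interval of -0.49 to 0.95 around its ratio. Its parent *Rpl3* had 19887 and 20257. *Rpl39l* and *Rpl10l*, known from the testis, had mean counts of 1.67 and 0, each the same in both genotypes, while *Rpl39* stood at 4704 and 4753 and *Rpl10* at 16471 and 16671. *Rps4y2*, the symbol in the table for a relative of *Rps4x* that falls outside the naming rule, had 251 and 345 counts and a log2 ratio of 0.40 (0.26 to 0.54).

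By count, *Rpl22l1* held 24.0% of the counts of its pair in *Foxo1f/f* and 25.5% in *Foxo1d/d*, *Rpl36al* held 22.0% and 23.9%, and *Rpl7l1* held 12.1% and 13.5%, while *Rps27l* held 97.3% and 97.0% of a pair in which *Rps27* had few reads. The coding sequences of *Rpl36a* and *Rpl36al* matched at 87.7% of aligned bases, those of *Rps27* and *Rps27l* at 76.2%, those of *Rpl22* and *Rpl22l1* at 66.9% and those of *Rpl7* and *Rpl7l1* at 53.0%. The first 30 coding bases of 2 pairs whose paralog has over 1000 counts are shown because such differences decide whether a read can be told from its partner, with capitals at the bases that differ within a pair, 6 for *Rpl36a* and *Rpl36al* and 10 for *Rps27* and *Rps27l*. They come from GENCODE M21 on GRCm38, where RefSeq places the whole gene of *Rpl36a* at chrX:134585654-134588062, of *Rpl36al* at chr12:69182734-69184067, of *Rps27* at chr3:90212667-90213648 and of *Rps27l* at chr9:66944624-66949522.
Rpl36a: atggtGaacgtGccTaaaacccgCCggacA
Rpl36al: atggtCaacgtAccAaaaacccgAAggacT
Rps27: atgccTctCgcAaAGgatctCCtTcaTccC
Rps27l: atgccCctGgcTaGAgatctGTtAcaCccT

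Ribosomal protein genes share more than their product. Members with a small nucleolar RNA (snoRNA) gene inside numbered 29 of 83 (34.9%), against 2.28% of all 22824 genes with a position, and they held 58 snoRNAs. *Rpl4* alone held 5, and *Rpl7a* and *Rpl13a* held 4 each. Of the 28 measured core genes with a snoRNA, 23 had a ratio below 0, and of the 46 without, 23 did, as did 44.9% of all measured genes. With ratios centred on the median gene the numbers below 0 were 28 and 40, so these counts depended on the scaling. Centring moved every value by -0.025, so it left the difference between the medians of these groups as it was. With division by the total count, the medians of the core genes with and without a snoRNA were -0.018 and -0.0022, and 14 and 13 intervals lay below 0, 0 and 5 above it. The members were spread over 19 chromosomes.

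Apart from *Rps4y2*, some ribosomal proteins have symbols outside the naming rule. *Fau*, a fusion with a ubiquitin-like protein, stood at 0.027, *Rps3a1* at 0.012, and *Gnb2l1*, the scaffold protein RACK1, at -0.033 from 27427 and 27978 counts. Of 6 pseudogenes listed with a ribosomal protein symbol and -ps, 2 reached 10 counts, *Rps15a-ps6* at 0.29 (-0.0050 to 0.60) and *Rps19-ps3* at -0.082 (-0.37 to 0.21).

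**Figure D4:**
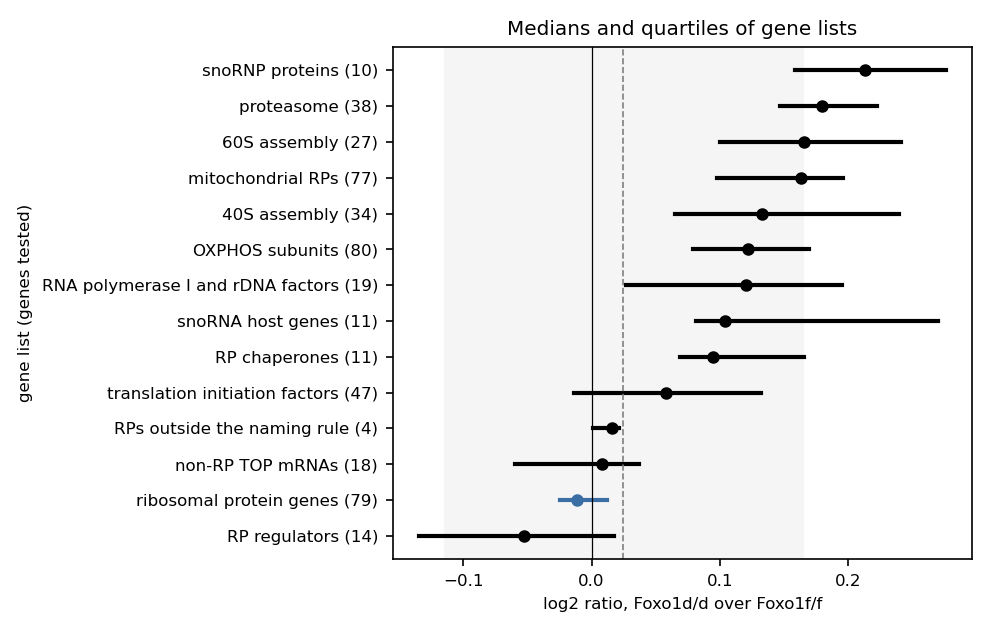
Median log2 ratio (Foxo1d/d over Foxo1f/f, x axis) of each gene list (points) with its quartiles (lines), with the number of genes measured in parentheses. The shaded band and dashed line give the quartiles and median of all 15696 measured genes. Ribosomal protein genes, in blue, have a median of -0.011, and the assembly factor, mitochondrial ribosome, proteasome and oxidative phosphorylation (OXPHOS) lists have medians between 0.12 and 0.21.

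Factors that build ribosomes had higher ratios than the ribosomal protein genes. For these lists and all that follow, the ends given are the lowest and highest genes with at least 50 counts in both genotypes. Of 27 measured factors for assembly of the 60S subunit, 23 had ratios above 0, with a median log2 ratio of 0.17, from *Gnl2* at -0.26 to *Rrs1* at 0.48. Of 34 factors for the 40S subunit, 32 were above 0, with a median of 0.13, from *Bms1* at -0.019 to *Bysl* at 0.54. The 10 proteins of snoRNA particles were all above 0, with a median of 0.21, from *Ncl* at 0.091 to *Nhp2* at 0.48. The 19 subunits and factors of RNA polymerase I had a median of 0.12, from *Taf1a* at -0.15 to *Polr1e* at 0.33. The 11 chaperones and importins of ribosomal proteins were all above 0, with a median of 0.095, from *Ipo7* at 0.046 to *Ipo5* at 0.22. Among snoRNA host genes outside the family, 9 of 11 were above 0, with a median of 0.10, from *Snhg11* at -0.80 to *Dancr* at 0.42. Of all genes in these lists, 1 passed 1.5-fold, *Snhg11*, where 5.43% of all measured genes were higher and 3.51% lower, and the medians of these lists were above 0 under every scaling tried.

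Other large complexes differed from the cytosolic ribosome in the same way. Mitochondrial ribosomal proteins, 77 genes, had a median log2 ratio of 0.16, with 71 above 0, from *Mrps6* at -0.37 to *Mrpl41* at 0.39. Proteasome subunits, 38 genes, were all above 0, with a median of 0.18, from *Psmd7* at 0.034 to the immunoproteasome subunit *Psmb9* at 0.70. Subunits of oxidative phosphorylation, 80 genes, had a median of 0.12 with 77 above 0, from *Cox6b2* at -0.13 to *Cox4i2* at 0.37, and *Cox6a2*, with 5.67 and 16.7 counts, at 1.34. Short transcripts had higher ratios in general, with a median of 0.11 for the 506 other genes with transcripts under 750 bases and 0.088 for the 2226 of 750 to 1500 bases. Of the 74 measured core ribosomal protein genes, 32 and 33 fall in these length classes, with medians of -0.0078 and -0.018.

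Other mRNAs with a TOP tract also had ratios near 0. The 18 TOP mRNAs of other proteins had a median log2 ratio of 0.0083, which turns negative with ratios centred on the median gene, and ranged from *Vim* at -0.24 to *Nap1l1* at 0.078. Translation initiation factors, 47 measured genes, had a median of 0.058, but the symbols took in 4 Argonaute genes, *Eif2c1* to *Eif2c4*, with *Eif2c4* lowest at -0.28. Without them, a choice made after seeing the data, 43 genes had a median of 0.081, from *Eif3k* at -0.14 to *Eif4e* at 0.34. Genes known to regulate ribosomal protein mRNAs had a median of -0.052. The TOP-binding protein *Larp1* stood at 0.060 and the S6 kinases *Rps6kb1* and *Rps6kb2* at 0.018 and 0.012. The translational repressors *Eif4ebp1*, *Eif4ebp2* and *Eif4ebp3* were at -0.30, -0.13 and -0.17. Among the transcription factors, *Mycn* was at -0.37, *Myc* at -0.14, *Sp1* at -0.076, *Gabpa* at -0.054, *Max* at -0.050, *Yy1* at 0.015, *Tbp* at 0.054 and *Zbtb7a* at 0.075. Of these 14 regulators, 0 passed 1.5-fold, where 5.43% of all measured genes were higher and 3.51% lower. The values are transcript levels and do not measure the activity of the kinases.

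Markers of cell types differed between the genotypes, where 5.43% of all measured genes were over 1.5-fold higher and 3.51% lower, and their part in the ratios of the ribosomal protein genes was not tested. Leukocyte genes were above 0 in 5 of 5, with a median log2 ratio of 0.37, from *Lcp1*, the most abundant, at 0.33 to *Coro1a* at 0.49, and their summed level was 419 and 545 CPM in *Foxo1f/f* and *Foxo1d/d*. Of 7 measured lymphocyte genes, 4 were over 1.5-fold higher, and the ends were *Klrb1c* at 0.094 and *Cd3e* at 1.09, below *Cd3d* with fewer counts at 1.37, with sums of 45.6 and 62.2 CPM, most of it *Ncr1*. Macrophage genes had a median of 0.26, from *Cd68* at 0.13 to *C1qa* at 0.33, with *Csf1r* the most abundant and sums of 417 and 496 CPM. All 5 adipose genes were over 1.5-fold higher, with *Fabp4*, the most abundant, at 1.71, *Adipoq* at 1.82, *Cidec* with fewer counts at 2.19 and sums of 10.2 and 36.7 CPM. Gland markers were over 1.5-fold lower in 3 of 4, with *Prss28* lowest at -6.56, *Foxa2* at 0.038, *Prss29* the most abundant and sums of 849 and 41.5 CPM.

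Markers of the tissues of the uterine wall moved both ways. Smooth muscle markers were below 0 in 7 of 7, with a median of -0.34, from *Myh11*, the most abundant, at -0.43 to *Acta2* at -0.15, and sums of 6697 and 5390 CPM. Endothelial markers had a median of -0.22, from *Emcn* at -0.24 to *Tek* at -0.19, with *Pecam1* the most abundant and sums of 1351 and 1164 CPM. Stroma had a median of -0.050, from *Pdgfra* at -0.26 to *Lum* at 0.37, with *Col3a1* the most abundant and sums of 15165 and 15105 CPM. Epithelium had a median of 0.28, with *Krt19* highest at 1.22, *Cdh1* the most abundant and sums of 694 and 804 CPM. Proliferation genes had a median of 0.29, with 11 of 12 above 0, from *Mki67*, the most abundant, at -0.016 to *Mcm2* at 0.58 and sums of 765 and 919 CPM. Of the erythroid genes, 4 globin symbols were listed at 0, and *Alas2* stood at 1.39. Ovary markers had sums of 33.7 and 31.8 CPM, from *Inha*, the most abundant, at -0.19 to *Star* at 0.027, and the oviduct marker *Ovgp1* stood at 0.17.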

How the data were processed

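Poly(A) RNA libraries of 6 uterine pools were sequenced by the authors as paired reads. The authors trimmed the reads, mapped them with STAR, removed duplicates with Picard and counted reads per RefSeq gene with HTSeq, with no versions named. The study's methods name mm10 and the submitters' processing notes mm9, which could not be settled here. The deposited table gives the mean raw count per genotype, and 100% of these means are whole after multiplication by 3, within 0.001. Its other deposited columns hold the authors' own edgeR fold change, average log2 CPM, p-value and FDR, and were not used.

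Ratios, exact intervals and summaries were computed with python 3.11.15, pandas 2.3.3, numpy 2.4.6 and scipy 1.17.1, and coding sequences were aligned with biopython 1.88. Transcript lengths and shared windows came from GENCODE M21 and positions and promoters from RefSeq (GRCm38.p6), and 85.5% of genes had a length. The planned count model needs single libraries, so no model was fitted. The ratio was tested on simulated counts. Scaling, pseudocount, minimum count, fold and membership were varied. The members and lists were chosen with earlier results of these data known. Most genes named singly come from the 6 highest and 6 lowest ratios and the 5 highest and 5 lowest levels among members with at least 50 counts in both genotypes, the paralogs with their parents, 15 well known members, the highest and lowest gene of each list under the same bound, all regulators, and *Foxo1* and *Pgr*. The others, such as neighbours and genes with few counts, were picked after the values were seen.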

Additional observations from a re-analysis of the deposited data

How the results depend on the processing

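No paired analysis was possible because the table holds only the mean of each genotype and no values of single libraries, and for the same reason no library could be left out. The median log2 ratio of the members was -0.011 with division by the total count, and it ranged from -0.037 with the trimmed mean of M values to -0.0091 without the members that share over 50% of their windows, the latter chosen after seeing the data. Centring on the median gene gave -0.036, upper quartile scaling -0.032 and a total without ribosomal protein genes -0.012, all below 0. The other settings were a pseudocount of 0.1, a minimum mean count of 1 or 50, members without a -ps symbol in the table, members without the paralogs, and, chosen after seeing the data, members without *Rps18* and *Rps2*. Under each of these settings 0 members passed 1.5-fold in either direction, and 0 passed a fold of 2. With a milder fold that lies between those of *Rps18* and *Rps2*, 0 were higher and 1 was lower, *Rps18*, which follows from the lower threshold. The share of the members in all counts, 3.17% in the control and 3.13% in the deleted group, was 3.27% and 3.22% without the 10 most abundant genes in the total, and 3.34% and 3.30% with the ribosomal proteins outside the naming rule added. Of 38 named genes, 22 left their counting interval with ratios centred on the median gene, 24 with the trimmed mean of M values and 12 with upper quartile scaling, and 11, 11 and 9 changed sign. With the pseudocount of 0.1 and with the total without ribosomal protein genes, 0 did either. Of the 72 core genes with 1000 or more counts, the interval of 41 included 0 with division by the total count, 22 with centring on the median gene, 21 with the trimmed mean of M values, 27 with upper quartile scaling and 41 with the total without ribosomal protein genes. The median of the translation initiation factors was 0.058 and, without the Argonaute genes, chosen after seeing the data, 0.081. The spread between pools, which decides whether differences of this size repeat, is not known.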
